A study of Homo sapiens with 4 samples.

Results

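The genes described here build fatty acids and store them as triglyceride. They are 35 genes chosen by name for their steps in the pathway, with earlier results of these data known, and each was found once among the 18398 transcripts measured. RNA was sequenced from Huh1 and Huh7, both established human hepatocellular carcinoma cell lines, each transfected with a negative control (NC) siRNA or with an ODC1 siRNA. The targeted gene encodes ornithine decarboxylase, which starts polyamine synthesis. There were 4 groups of 1 library each: Huh1 with NC siRNA, Huh1 with ODC1 siRNA, Huh7 with NC siRNA and Huh7 with ODC1 siRNA. Every library therefore came from transfected cells, and no untransfected cells were analysed here. The labels name 1 ODC1 siRNA treatment and give no dose, no time after transfection and no second siRNA.

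Fatty acid synthesis starts from citrate that leaves the mitochondria and is split to acetyl-CoA in the cytosol. Acetyl-CoA is carboxylated to malonyl-CoA, joined into palmitate with NADPH as the reductant, and then elongated and desaturated. Acyl chains are activated with coenzyme A and placed in turn on glycerol phosphate, and the last acylation gives triglyceride. In liver the pathway turns surplus carbohydrate into fat, under the transcription factors SREBP1 and ChREBP, and many liver cancers express its enzymes at high levels.

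Values are RPKM, reads scaled to transcript length and library depth, so levels can be compared between genes. The depth recovered from the lowest values was 13384836 reads for Huh1 with NC siRNA, 11227128 for Huh1 with ODC1 siRNA, 12197606 for Huh7 with NC siRNA and 10215332 for Huh7 with ODC1 siRNA. At these depths 1 read on a transcript of 2 kb is worth 0.0374 to 0.0489 RPKM. ODC1 itself stood at 103 RPKM in Huh1 with NC siRNA and at 25.01 RPKM with its own siRNA, and at 167 and 7.50 RPKM in Huh7, so both libraries labelled ODC1 siRNA held less of the targeted transcript. The fitted ODC1 difference was -3.15 on the log2(RPKM + 1) scale (SE 0.403, adjusted p = 0.0157).

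With 1 library per group, no test exists within a line. The siRNA was tested over both lines, and the lines over both siRNAs, with limma on log2(RPKM + 1) in 1 fit with a term for line and a term for siRNA. Nothing in the labels says that the libraries came from separate experiments, so these p-values measure only the spread between the 4 libraries. Within a line, the share of the NC level that was left with ODC1 siRNA is given with a 95% interval that covers counting error only. A fold change is on the log2(RPKM + 1) scale, which understates the change of low genes. In these bulk libraries fewer cells with a transcript and less of it per cell cannot be told apart.

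Of the 35 genes, 32 reached 1 RPKM in at least 1 library and were tested. SCD5, a second stearoyl-CoA desaturase, stood between 0.0458 and 0.112 RPKM. AGPAT4, an acyltransferase known mainly from brain, stood between 0.237 and 0.895 RPKM. THRSP, a nuclear protein that accompanies lipogenesis in liver and fat, was listed at 0 in Huh7 with NC siRNA and reached at most 0.166 RPKM, in Huh7 with ODC1 siRNA. The most abundant member in every library was SCD, the stearoyl-CoA desaturase that makes oleate, at 323, 281, 411 and 231 RPKM (libraries here and wherever 4 values follow each other in the order Huh1 NC, Huh1 ODC1, Huh7 NC, Huh7 ODC1). Its rank among all transcripts lay between 139 and 237, and it made up 22.2%, 20.6%, 25.4% and 19.5% of the members' summed RPKM.

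**Figure D1:**
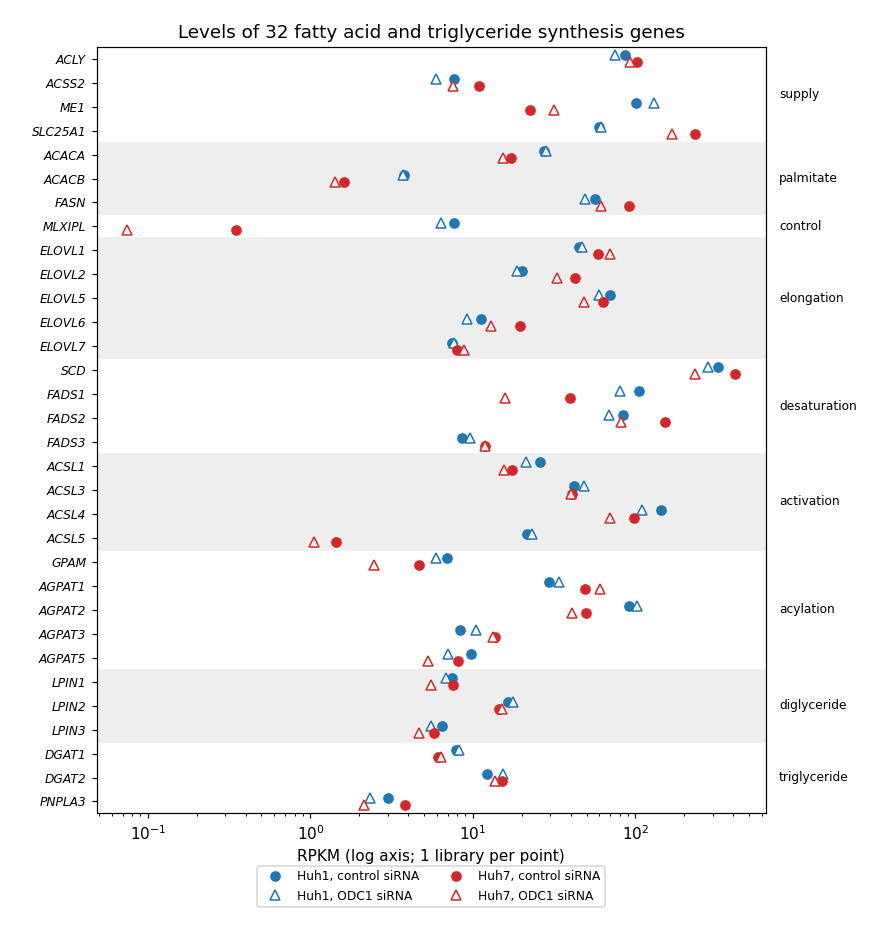
RPKM of each of the 32 tested genes (log axis) in the 4 libraries, grouped by step of the pathway. Each point is 1 library, and there are no error bars because each group holds 1 library. SCD lies highest. SCD5, AGPAT4 and THRSP, under the 1 RPKM filter in every library, are not shown.

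The sum over the 35 genes was 1457 RPKM with NC and 1361 RPKM with ODC1 siRNA in Huh1, a difference of -6.59%, and 1619 against 1187 RPKM in Huh7, a difference of -26.7%. Over both lines, ME1 rose and ACSL4 fell, and the other 30 tested members did not pass an adjusted p of 0.05. Both calls ended with a pseudocount of 0.1 (adjusted p = 0.0566 for ME1 and 0.0506 for ACSL4), with no filter on low values (0.293 for both) and with no term for line. The background in the same fit was 2.12% of 12039 genes called, 1.5% higher and 0.615% lower. An unadjusted p under 0.05 was found for 16 of the 32 members, or 50%, against 19% of all genes tested, and the members' median siRNA difference was -0.21 against 0.01 for all genes, a description of a list not chosen independently of these data. When limma's spread was instead modelled on counting variance, ACSL4, FADS1, FADS2, SCD and FASN were called lower and ME1 higher, against a background of 0.847% lower and 1.92% higher.

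The sign of the difference was lower in Huh1 for 18 of 32 members, or 56.2%, against 44.9% of all genes with at least 1 RPKM in Huh1, with a median of -0.10 against 0.02. In Huh7 it was lower for 24 of the 31 members that reached 1 RPKM there, or 77.4%, against 50.5% of all genes, with a median of -0.26 against -0.0034. Among the 32 tested members, 18 were lower in both lines (56.2%, against 30% of all tested genes), 7 were higher in both (21.9%, against 34.1%) and 7 were higher in Huh1 and lower in Huh7 (21.9%, against 19.9%). None was lower in Huh1 and higher in Huh7, where 14.7% of all tested genes stood. The Huh7 difference lay below the Huh1 difference for 26 of 32 members (81.2%, against 53.3%). With 1 library per group, the difference between the lines in response was not tested.

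No member reached a 1.5-fold difference in Huh1, where 1.01% of 10912 genes were at least that much higher and 0.367% at least that much lower. In Huh7, 5 of 31 members were at least 1.5-fold lower and none was higher, against 3.16% of 11416 genes lower and 2.53% higher. These were FADS1, FADS2, SCD, GPAM and PNPLA3. By counting error alone, 13 members were lower in Huh1, 6 were higher and 13 had an interval that included no difference. In Huh7 the corresponding numbers were 20, 3 and 9. The intervals were below the NC level in both lines for 13 members, among them MLXIPL, which stood at only 0.350 and 0.0747 RPKM in Huh7. For ME1 and AGPAT1 the intervals were above the NC level in both lines. The share of all genes that lay outside counting error was not computed, so these interval counts say nothing particular about the members.

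**Figure D2:**
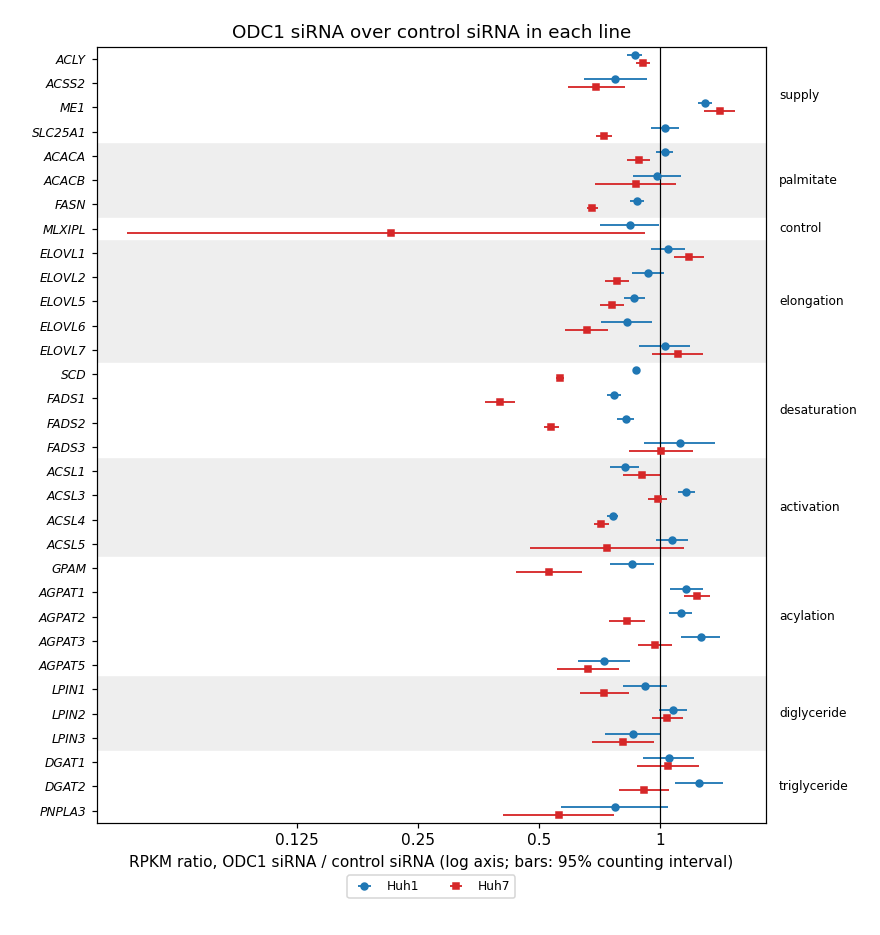
ODC1 siRNA level over NC siRNA level for each of the 32 tested members in Huh1 and in Huh7 (log axis), with 95% counting intervals from recovered reads; each point compares 2 libraries. FADS1 in Huh7 lies at 39.95% of its NC level and ME1 lies above the NC level in both lines.

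Hepatocyte markers were read beside these genes. Of 10 such markers, 7 were lower in Huh1 and 9 in Huh7 with ODC1 siRNA, with medians of -0.06 and -0.37. Of all genes with at least 1 RPKM in the line, 44.9% were lower in Huh1 and 50.5% in Huh7. APOA1, SERPINA1 and TTR were not lower in Huh1, and TTR was not lower in Huh7. The marker sum stood at 5322, 4605, 3457 and 2733 RPKM in the 4 libraries. ALB and FGA fell over both lines. Like every siRNA call reported here, theirs ended with no filter on low values and with no term for line. TTR stood at 5.10, 6.91, 29.3 and 43.99 RPKM, and its call as higher (adjusted p = 0.0494) ended with the spread on counting variance (adjusted p = 0.14). ALB, serum albumin, stood at 3447, 2806, 1166 and 920.4 RPKM. The part of hepatocyte identity or of cell makeup in the members' differences was not tested. All 4 adipocyte markers, the genes of the other cell type rich in this pathway, stood under 1 RPKM in every library. The 3 endothelial markers found also stayed under 1 RPKM, as did every blood cell marker but CD68, and fibroblast markers summed to 12.1 and 15.7 RPKM in Huh1 and 284 and 370.4 RPKM in Huh7. The largest fibroblast marker in Huh7 was LUM, which encodes lumican and rose over both lines, at 143 and 193 RPKM there. The collagen genes COL1A1, at 107 and 128 RPKM, and COL1A2, at 31.4 and 45.8 RPKM, came next in Huh7. Both collagen genes stood under 1 RPKM in Huh1. Bile duct markers summed to 114, 119, 164 and 141 RPKM, and none passed the siRNA test or had an unadjusted siRNA p under 0.05. The sum hides differences between the lines: of the 4 markers, limma called 3 higher and 1 lower in Huh7 over both siRNAs. KRT7, the lower marker, had levels of 84.4, 84.7, 0.660 and 0.485 RPKM. KRT19, a higher one, had levels of 12.04, 11.99, 110.5 and 88.5 RPKM.

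The promoters of the genes that the siRNA results turn on are shown for a reader to compare, with only the bases before the start of the counted transcript in GENCODE 29, from which positions are counted. RefSeq windows of GRCh38.p14, from 250 bases before to 50 after a gene's start, were found for 29 members, and for 21 that start lay within 200 bases of the start of the counted transcript in GENCODE 29. SCD lies on the plus strand at chr10:100346983-100347123, and the others on the minus strand, FADS1 at chr11:61817163-61817253, ME1 at chr6:83431072-83431301 and ACSL4 at chrX:109733404-109733507. Capitals mark the box CCAAT bound by NF-Y, the box GGGCGG bound by Sp1 and its reverse complement, and in ME1 the match to TGACNNNGC, the core of the antioxidant response element, whose search was chosen after the sequence was seen.
SCD: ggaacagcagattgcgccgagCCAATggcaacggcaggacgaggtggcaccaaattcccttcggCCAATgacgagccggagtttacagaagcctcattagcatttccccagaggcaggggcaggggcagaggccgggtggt
FADS1: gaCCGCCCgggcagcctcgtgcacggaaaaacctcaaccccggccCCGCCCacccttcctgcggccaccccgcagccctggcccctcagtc
ME1: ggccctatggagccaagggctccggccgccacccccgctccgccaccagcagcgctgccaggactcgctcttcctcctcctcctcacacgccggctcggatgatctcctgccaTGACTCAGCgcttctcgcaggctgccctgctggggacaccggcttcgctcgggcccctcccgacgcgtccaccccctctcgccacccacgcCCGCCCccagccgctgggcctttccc
ACSL4: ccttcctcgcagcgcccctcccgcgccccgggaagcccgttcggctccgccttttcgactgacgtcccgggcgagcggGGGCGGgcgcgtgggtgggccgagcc
Both strands of each 300 base window were searched. CCAAT stood in 10 of the 21 windows (47.6%, against 35.7% of 27305 windows of the same length), and in SCD it began at -120 and -77. GGGCGG stood in 17 (81%, against 44.6%), and TGACNNNGC in 2 (9.52%, against 13.6%), in ME1 as TGACTCAGC from -117. CACGTG, the E-box bound by USF and related factors, stood in 1 window (4.76%, against 7.43%), that of ELOVL5. TCACNCCAC, a form of the sterol regulatory element that SREBPs bind, stood in none of the 21 and in 1.15% of all windows, which says only that these letters are not in these windows. FASN, FADS2 and PNPLA3 are not among the 21, so the member counts do not cover them.

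The supply of citrate, acetyl-CoA and NADPH is run by SLC25A1, ACLY, ACSS2 and ME1. SLC25A1, the mitochondrial citrate carrier, stood at 60.1 and 61.7 RPKM in Huh1, while Huh7 held 231 and 167 RPKM. Its level with ODC1 siRNA was 103% of NC in Huh1 (94.9% to 111%) and 72.3% in Huh7 (69.0% to 75.8%), so the 2 lines did not share a direction beyond counting error. ACLY, the ATP citrate lyase that cleaves citrate to acetyl-CoA, stood at 86.6, 74.7, 102.7 and 92.8 RPKM, and the level left was 86.3% in Huh1 and 90.3% in Huh7. ACSS2, which makes acetyl-CoA from acetate, stood at 7.70, 5.95, 10.8 and 7.49 RPKM, with 77.3% and 69.2% left. Neither passed the test over both lines (adjusted p = 0.202 and 0.1).

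ME1, the cytosolic malic enzyme that makes NADPH for acyl chain synthesis, was the member that rose. It stood at 100.9 RPKM in Huh1 with NC siRNA and 130.5 RPKM with ODC1 siRNA, and at 22.4 and 31.5 RPKM in Huh7. The ODC1 siRNA libraries held 129% of the NC level in Huh1 (124% to 135%) and 140% in Huh7 (128% to 153%), a fitted difference of 0.42 (SE 0.0729, adjusted p = 0.0327). Huh7 stood well below Huh1 with both siRNAs, at 0.222 and 0.241 of its level, and no Huh7 value reached a Huh1 value.

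Malonyl-CoA and palmitate are made by ACACA, ACACB and FASN. FASN, the fatty acid synthase, stood at 56.3, 49.2, 90.8 and 61.5 RPKM. The level left was 87.4% in Huh1 (84.2% to 90.8%) and 67.7% in Huh7 (65.5% to 70.0%). Both lines were lower by more than counting error, and the fit over both lines gave -0.37 (SE 0.0936, adjusted p = 0.0834). The adjusted p ranged over the other settings with a term for line from 0.0405 with upper quartile scaling to 0.343 with no filter. ACACA, the cytosolic acetyl-CoA carboxylase, differed less: it stood at 27.4, 28.1, 17.2 and 15.2 RPKM, or 102% and 88.2% of the NC level. ACACB, the mitochondrial form, stood at 3.77, 3.69, 1.62 and 1.41 RPKM, and ACACA made up 87.9% to 91.5% of their sum in every library.

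**Figure D3:**
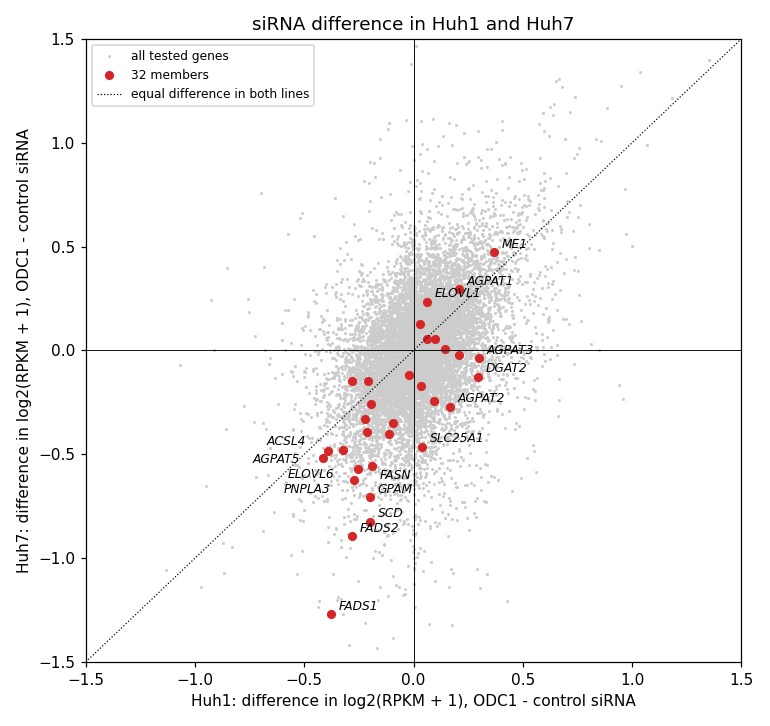
Each tested gene's log2(RPKM + 1) difference between ODC1 and NC siRNA in Huh1 (x axis) and in Huh7 (y axis), with the 32 tested members in red, some of them labelled, and all tested genes in grey; each point compares 2 libraries per line, and 5 genes lie outside the axes. ME1 and AGPAT1 lie above 0 in both lines and FADS1 lies lowest among the members on the Huh7 axis.

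Among the steps of the pathway, desaturation had the largest percent difference of its summed RPKM in both lines, apart from the control genes in Huh1. The desaturase sum was 521 RPKM with NC and 440.4 RPKM with ODC1 siRNA in Huh1, and 614 against 340.2 RPKM in Huh7, differences of -15.5% and -44.6%. SCD with ODC1 siRNA stood at 87.01% of NC in Huh1 (85.3% to 88.8%) and at 56.3% in Huh7 (55.1% to 57.5%), a fitted difference of -0.51 (SE 0.122, adjusted p = 0.0717).

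FADS1 and FADS2, the delta-5 and delta-6 desaturases of polyunsaturated chains, lie beside each other on chromosome 11. FADS1 stood at 105 and 80.8 RPKM in Huh1, against 39.6 and 15.8 RPKM in Huh7. Its remaining level was 76.7% in Huh1 (73.7% to 79.8%) and 39.95% in Huh7 (36.7% to 43.4%), and the fitted difference was -0.83 (SE 0.17, adjusted p = 0.0507). FADS2 stood at 84.1, 69.0, 152 and 81.0 RPKM, with 82.0% left in Huh1 (78.2% to 86.1%) and 53.5% in Huh7 (51.2% to 55.8%), and a fitted difference of -0.59 (SE 0.124, adjusted p = 0.0525). Both missed 0.05 in this fit. Their adjusted p was 0.0297 and 0.0325 with the spread on counting variance, 0.0157 and 0.0179 with upper quartile scaling, 0.0952 and 0.0945 with a pseudocount of 0.1, and 0.339 and 0.337 with no filter. The pair also differed between the lines: FADS1 stood at 1.25 and 1.17 times FADS2 in Huh1 but at 0.261 and 0.195 times FADS2 in Huh7.

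FADS3, a relative of unsettled role in fatty acid desaturation, stood at 8.61, 9.61, 11.8 and 11.9 RPKM. Unlike its neighbours, it was not lower with ODC1 siRNA in either line, at 112% of NC in Huh1 and 100.4% in Huh7.

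Among the ELOVL enzymes, which elongate acyl chains, ELOVL2, ELOVL5 and ELOVL6 stood below NC in both lines and ELOVL1 and ELOVL7 above it. None passed the test over both lines, the closest being ELOVL5 at an adjusted p of 0.0848. ELOVL5, which elongates polyunsaturated chains, stood at 69.5, 59.9, 63.5 and 48.1 RPKM, with 86.1% left in Huh1 (81.2% to 91.4%) and 75.7% in Huh7 (70.7% to 81.0%). ELOVL6, which elongates palmitate to stearate, stood at 11.1, 9.19, 19.6 and 12.8 RPKM, with 82.4% (71.3% to 95.4%) and 65.6% (57.9% to 74.1%) left. ELOVL2, which acts on longer polyunsaturated chains, stood at 20.1, 18.7, 42.5 and 33.1 RPKM. ELOVL1, which makes very long saturated chains, stood at 44.6, 46.7, 59.2 and 69.8 RPKM, and only in Huh7 did its interval exclude no difference (118%, 108% to 129%). ELOVL7 stood at 7.46, 7.64, 8.04 and 8.86 RPKM. With ODC1 siRNA the ELOVL5 share of the elongase sum went from 45.5% to 42.1% in Huh1 and from 32.9% to 27.8% in Huh7, while the ELOVL1 share went from 29.2% to 32.8% and from 30.7% to 40.4%.

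Activation to acyl-CoA held the member that fell. ACSL4, the long chain acyl-CoA synthetase that prefers arachidonate, stood at 144 and 109.7 RPKM in Huh1, and in Huh7 at 97.4 and 69.4 RPKM. The counting intervals of the share left overlapped between the lines, with 76.1% in Huh1 (73.7% to 78.5%) and 71.3% in Huh7 (68.4% to 74.3%). The fitted difference was -0.44 (SE 0.0664, adjusted p = 0.0221). It was the most abundant ACSL gene in every library, and its share of the ACSL sum went from 61.8% to 54.2% in Huh1 and from 62.0% to 55.0% in Huh7.

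The other ACSL genes did not pass the test. ACSL1, a synthetase tied to both fat storage and oxidation in liver, stood at 25.9, 21.1, 17.4 and 15.6 RPKM. ACSL3, found on lipid droplets and the endoplasmic reticulum, stood at 41.8, 48.5, 40.8 and 40.1 RPKM, at 116% of NC in Huh1 and 98.3% in Huh7. ACSL5 stood at 21.6 and 23.1 RPKM in Huh1, while Huh7 held 1.43 and 1.05 RPKM, where its interval ran from 47.5% to 114%, so a difference with ODC1 siRNA was not detectable at this depth.

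The acyltransferases of glycerol phosphate went both ways. GPAM, the mitochondrial enzyme of the first acylation, stood at 6.92, 5.89, 4.65 and 2.46 RPKM, with 85.1% left in Huh1 (74.9% to 96.6%) and 52.9% in Huh7 (43.7% to 63.9%). AGPAT5, which like the next enzymes adds the second chain, stood at 9.67, 7.004, 8.04 and 5.30 RPKM, with 72.5% left in Huh1 (62.4% to 84.0%) and 66.0% in Huh7 (55.4% to 78.8%). Its fitted difference of -0.47 did not pass the test (SE 0.108, adjusted p = 0.068). AGPAT1 stood at 29.3, 34.0, 49.2 and 60.6 RPKM, above NC in both lines, but 46.96% of the exonic bases of its counted transcript also lie in exons of other genes, mostly on the opposite strand. No source used here says whether reads were assigned by strand, and its values may include reads of those genes. The same limit holds to a lesser extent for DGAT2, DGAT1 and ACSL5. Their counted transcripts share 17.2%, 12.3% and 10.9% of exonic bases with other genes.

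AGPAT2, the form whose loss causes lipodystrophy, went opposite ways in the lines. It stood at 91.1 and 102 RPKM in Huh1, against 49.4 and 40.8 RPKM in Huh7, or 112% of NC (105% to 120%) and 82.5% (74.4% to 91.4%). AGPAT3 stood at 8.29, 10.4, 13.6 and 13.2 RPKM, 126% of NC in Huh1 (112% to 141%) and 97.2% in Huh7. The AGPAT sum differed by little in Huh7, at 121.1 and 120.8 RPKM, and stood at 139 and 154 RPKM in Huh1.

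Phosphatidate is turned into diglyceride by the lipins. LPIN2 led in every library, with 51.9% to 59.6% of the lipin sum, and stood at 16.4, 17.6, 14.5 and 15.04 RPKM. LPIN1 stood at 7.43, 6.80, 7.58 and 5.50 RPKM, and only its Huh7 interval lay below the NC level, at 72.5% (63.0% to 83.6%). LPIN3 stood at 6.49, 5.55, 5.80 and 4.69 RPKM.

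The last acylation belongs to DGAT1 and DGAT2. DGAT1 stood at 7.82, 8.20, 6.06 and 6.34 RPKM, at 105% of NC in both lines. DGAT2, the form that uses newly made chains, stood at 12.3, 15.3, 15.1 and 13.7 RPKM, or 125% of NC in Huh1 (108% to 143%) and 91.1% in Huh7 (78.9% to 105%). PNPLA3, a lipid droplet hydrolase whose common variant goes with fatty liver, stood at 3.01, 2.32, 3.81 and 2.13 RPKM, with 76.9% (56.6% to 104%) and 55.8% (40.6% to 76.5%) left. None of the 3 passed the test over both lines.

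MLXIPL, which encodes the carbohydrate-responsive factor ChREBP, stood at 7.61 and 6.39 RPKM in Huh1, and in Huh7 at 0.350 and 0.0747 RPKM. Its Huh7 level was too low for a share to be read, with a counting interval from 4.71% to 91.7%.

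**Figure D4:**
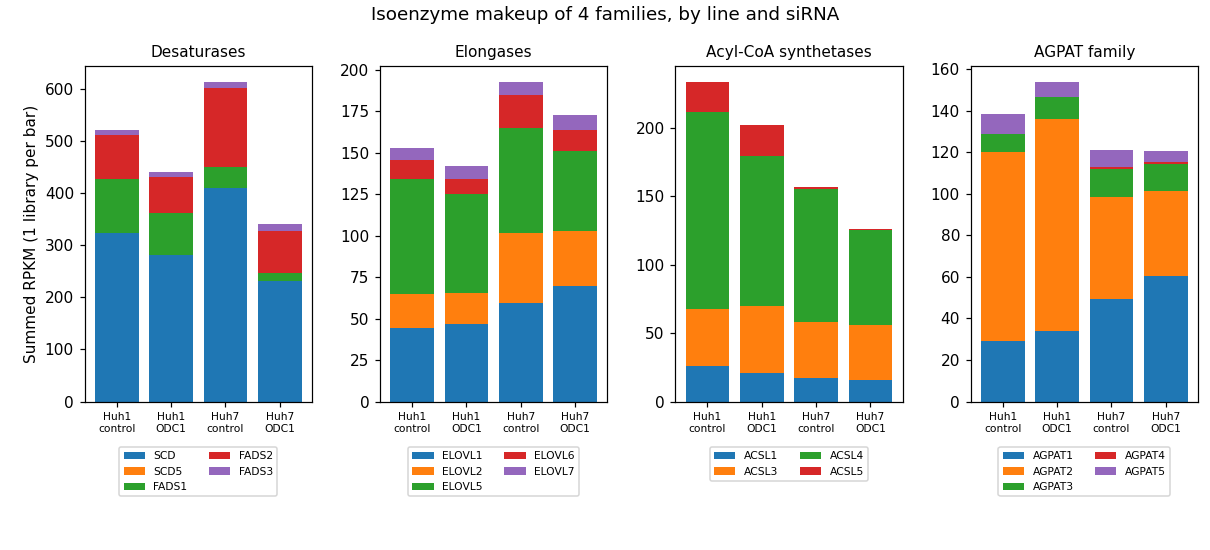
Summed RPKM of the desaturases, elongases, acyl-CoA synthetases and AGPAT family in the 4 libraries, stacked by gene (each bar 1 library). SCD holds 62.0% to 68.0% of the desaturase sum, and AGPAT2 holds 65.7% of the AGPAT sum in Huh1 but 40.8% in Huh7 with NC siRNA.

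Over both siRNAs, 11 of 32 members were higher in Huh7, 13 were lower and 8 did not pass the test. The 75% called is near the background of 73.9% of 12039 genes, 43.1% higher and 30.8% lower, so the count says nothing particular about these genes. With NC siRNA, 2 members were at least 2-fold higher in Huh7 and 4 at least 2-fold lower, against 17% and 10.2% of 11896 genes. The NC level was lower in Huh7 for 16 of 32 members, or 50%, against 42.8% of all genes. SLC25A1 and ELOVL2 were the 2 higher genes, at 3.85 and 2.11 times the Huh1 level, with fitted line differences of 1.67 (adjusted p = 1.71e-06) and 0.92 (adjusted p = 2.6e-05). The 4 lower genes were ACSL5, ME1, MLXIPL and FADS1, at 0.0662, 0.222, 0.0460 and 0.376 of the Huh1 level. Their fitted differences were -3.38, -2.07, -2.73 and -1.84.

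Palmitate synthesis did not go one way between the lines. FASN was higher in Huh7 (line difference 0.50, adjusted p = 0.00125), while ACACA and ACACB were lower (-0.74 and -0.91). FADS2, ELOVL6 and AGPAT1 were higher in Huh7, and AGPAT2 was lower, so that AGPAT2 made up 65.7% and 66.4% of the AGPAT sum in Huh1 and 40.8% and 33.8% in Huh7, and AGPAT1 21.1%, 22.1%, 40.7% and 50.2% in the 4 libraries. SCD stood at 1.27 times the Huh1 level with NC siRNA and at 0.823 times with ODC1 siRNA, and its line difference of 0.03 did not pass the test (adjusted p = 0.814).

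**Figure D5:**
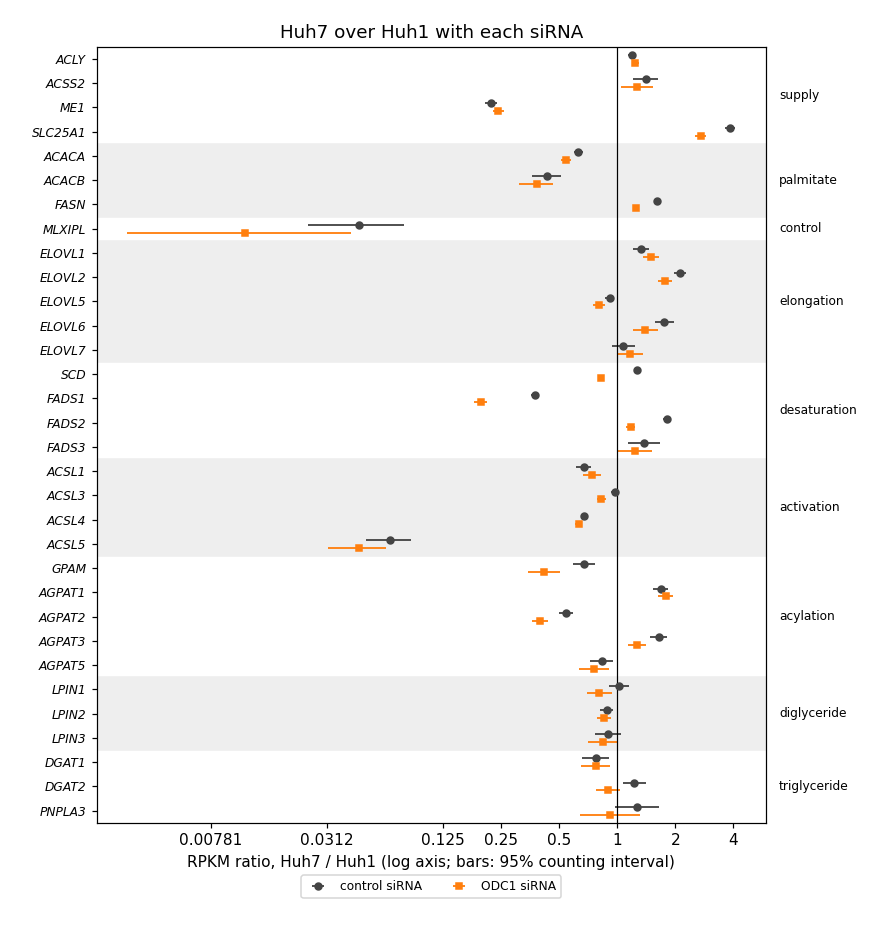
Huh7 level over Huh1 level of each of the 32 tested members (log axis) with NC siRNA and with ODC1 siRNA, with 95% counting intervals; each point compares 2 libraries. SLC25A1 lies highest and MLXIPL and ACSL5 lie lowest.

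The genes around the pathway were read from 6 further lists. Among 16 regulators, limma called 1 lower over both lines and none higher, against 0.615% and 1.5% of all genes tested. PRKAA1, a catalytic subunit of the kinase AMPK that shuts down acetyl-CoA carboxylase, stood at 31.1, 22.7, 32.1 and 20.2 RPKM. Its fitted difference was -0.54 (SE 0.0884, adjusted p = 0.0267). PRKAA2, the other catalytic subunit, was named after its values were seen. It stood at 6.67, 8.80, 8.39 and 7.98 RPKM and did not pass the test (adjusted p = 0.584). The regulator list had medians of 0.03 in Huh1 and -0.16 in Huh7. Named after its values were seen, SREBF1, which encodes SREBP1, stood at 14.6, 17.0, 19.6 and 16.7 RPKM. By counting error alone it was above NC in Huh1 (1.16 times, 1.05 to 1.28) and below NC in Huh7 (0.851 times, 0.772 to 0.938). With opposite signs in the lines, its difference did not pass the test over both (adjusted p = 0.982). INSIG2, which holds SREBPs in the endoplasmic reticulum, stood at 7.20, 7.38, 17.0 and 10.8 RPKM, and MBTPS2, a protease that releases them, at 3.996, 3.76, 20.6 and 15.2 RPKM. NR1H2, the sterol receptor LXR beta, stood at 28.2, 30.5, 13.2 and 18.5 RPKM. Its fitted difference of 0.28 did not pass the test (SE 0.104, adjusted p = 0.19), nor did those of INSIG2 and MBTPS2.

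Among 14 measured genes that supply citrate and NADPH, 9 were lower in Huh1 with ODC1 siRNA and 10 in Huh7, with medians of -0.02 and -0.07. The shares lower among all genes with at least 1 RPKM in the line were 44.9% and 50.5%, with medians of 0.02 and -0.0034. ME2, a mitochondrial malic enzyme, stood at 11.7, 10.3, 10.3 and 7.40 RPKM and did not pass the test (adjusted p = 0.191). IDH1, the cytosolic isocitrate dehydrogenase, which makes NADPH, stood at 806 and 748 RPKM in Huh1, while Huh7 held 173 and 128 RPKM. PGD, an NADPH-making enzyme of the pentose phosphate pathway that was named after its values were seen, stood at 989 and 886 RPKM in Huh1, against 155 and 143 RPKM in Huh7. ME1, IDH1 and PGD were lower in Huh7 over both siRNAs.

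In the siRNA test, none of the 4 other lists held a call by limma, with either model of the spread. An unadjusted p under 0.05 was found for 1 of 6 tested genes of the elongation cycle, 3 of 9 of fatty acid uptake and activation, 1 of 6 of other esterification and 0 of 7 of mitochondrial fatty acid synthesis, against 19% of all genes tested. Levels there differed between the lines. CD36, a fatty acid transporter, stood at 48.1 and 38.3 RPKM in Huh1, against 0.552 and 0.290 RPKM in Huh7. FABP1, the liver fatty acid binding protein, stood at 221 and 286 RPKM in Huh1, and in Huh7 at 42.7 and 27.6 RPKM. AGPAT9, an enzyme of the first acylation in the endoplasmic reticulum, stood at 52.1 and 46.4 RPKM in Huh1, while Huh7 held 4.85 and 3.86 RPKM.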

How the data were processed

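Total RNA from Huh1 and Huh7 cells was sequenced in 4 libraries, 1 for each line and siRNA. The submitters' processing notes name CASAVA 1.8.2, TopHat2 2.0.9 and hg19. The counter, annotation release and strand setting were not given in the sources used here. The authors deposited RPKM values per RefSeq transcript, with no header.

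Values were analysed as log2(RPKM + 1) for 12039 genes that reached 1 RPKM in some library. limma 3.58.1 (R 4.3.3) was fitted to all of them with terms for line and siRNA and an intensity trend, and p-values were adjusted by Benjamini-Hochberg. The fit has 1 residual degree of freedom, set by how far the siRNA difference departs between Huh1 and Huh7, and 7.42 prior degrees of freedom. Line is the pairing, since both siRNAs were used in each line. Within a line, a 1.5-fold difference was counted, and between lines with NC siRNA a 2-fold one, with no p-value. Depth was recovered from values under 0.3 RPKM, but many values stand for fractions of a read, so no count model was run. Recovered reads, with GENCODE 29 lengths, gave exact Clopper-Pearson 95% intervals that cover counting error only.

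The members, the 6 pathway lists and the 6 marker lists (hepatocyte, adipocyte, fibroblast, blood cell, endothelium, bile duct) were chosen with earlier results of these data known. All tested members were named, and at most 4 genes per pathway list, those with the largest siRNA difference, unless said otherwise. Alternatives were a pseudocount of 0.1, no filter, upper quartile scaling, a trend on counting variance, no term for line, 1 line left out and other fold rules. MPC1 and PECAM1 were not matched. Some results of the citrate and NADPH list are not reported here.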

Additional observations from a re-analysis of the deposited data

Results flagged for a closer look

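AGPAT2, the acyltransferase of the second acylation of glycerol phosphate, differed between the lines in its response to ODC1 siRNA. Its level stood above NC by more than counting error in Huh1 (91.1 and 102 RPKM) and below NC by more than counting error in Huh7 (49.4 and 40.8 RPKM). The Huh7 difference minus the Huh1 difference was -0.44 on the log2(RPKM + 1) scale. That value was further from 0 for FADS1 (-0.89), SCD (-0.63), FADS2 (-0.61), GPAM (-0.51) and SLC25A1 (-0.50). Of all tested genes, 19.9% were higher in Huh1 and lower in Huh7. With 1 library per line and siRNA, none of these differences between the lines was tested.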

How the results depend on the processing

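Over both lines limma called 255 genes and 2 members. It called 54 genes and 0 members with a pseudocount of 0.1 (17 members at an unadjusted p under 0.05), and 0 genes and 0 members with no filter (2040 genes and 14 members unadjusted). Without the replicate block for line it called 0 genes and 0 members (22 and 0 unadjusted). Upper quartile scaling called 479 genes, 286 higher and 193 lower against 181 and 74, and 8 members, 1 higher and 7 lower. It added FASN, SCD, FADS1, FADS2, ELOVL5 and AGPAT5, and the trend on counting variance called 6 members. Neither ME1 nor ACSL4 was called with a pseudocount of 0.1 (adjusted p = 0.0566 and 0.0506), with no filter (0.293 for both) or without the block (1 for both). Genes past the fold rule went from 150 to 379 in Huh1 and from 650 to 1121 in Huh7 with a pseudocount of 0.1. A 2-fold rule gave 9 in Huh1 and 88 in Huh7, with 1 Huh7 member in place of 5. Between lines, a 1.5-fold rule gave 5676 genes in place of 3239 and 14 members, 7 in each direction, in place of 6. The line difference reversed under upper quartile scaling for SCD (0.03 to -0.065) and DGAT2 (0.07 to -0.027), neither of them called, as that scaling moved the median line difference of all genes by -0.0893. Leaving out a line leaves 2 libraries and the within-line values given above, with no test. The cause of the other changes was not tested. Depth limits the genes near 1 RPKM, such as MLXIPL and ACSL5 in Huh7.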
